A study of Mus musculus with 9 samples.

Results

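Chemokine receptors are membrane proteins with 7 helices that couple to inhibitory G proteins and steer a cell towards the chemokine they bind. In CD8+ T cells, which kill infected and tumour cells, the set of receptors made differs between cells that stay in lymph nodes, cells that enter inflamed tissue and cells that remain in tissue. The genes described here are 9 receptor genes chosen by symbol, Cxcr4, Cxcr5, Cxcr6, Ccr2, Ccr4, Ccr6, Ccr8, Ccr9 and Cx3cr1, out of 37022 genes with a value. All 9 had at least 1 row in both deposited tables, and among several annotated transcripts of a gene the one with most gene-body signal, averaged over all libraries, was used.

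Nascent RNA was measured in 9 libraries of mouse CD8+ T cells: 3 under acute stimulation, 3 under chronic stimulation and 3 under chronic stimulation with MEK inhibition. MEK is the kinase that activates ERK in the MAP kinase cascade downstream of the T cell receptor. All 9 libraries come from cells given 0.2 mM 5-ethynyl uridine for 30 minutes, so that the captured RNA is RNA made in that window. The mouse strain, age, the manner and length of stimulation, the inhibitor and its dose are not stated in the labels, nor whether the libraries of a group came from separate animals or cultures, so p-values measure the spread between these libraries, which may be technical. In bulk RNA, fewer cells that use a gene and less new RNA per cell cannot be told apart.

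Gene-body signal covers the transcribed stretch of a transcript, and pause-region signal covers the stretch near its start, where RNA polymerase II can be held before it moves on. Values are the authors' signal after rescaling between libraries (scaled signal), in arbitrary units, and depth in reads is unknown. Deposited gene-body totals ran from 48601800 to 52216200 units per library, and 19.1 to 22.3% of them in acute, 34.2 to 40.6% in chronic and 29.0 to 36.1% in MEK-inhibited chronic libraries lay in 1 ribosomal RNA-like locus. The CD8 and CD3 genes were high in every library: Cd8a ran from 3653 to 4340 in acute, 832 to 1171 in chronic and 2580 to 3064 in MEK-inhibited libraries. The 2 CD4 T cell markers summed to 1040 to 1367 in acute, 1054 to 1383 in chronic and 1729 to 2016 in MEK-inhibited libraries. The 2 markers of gamma-delta T cells summed to 337 to 506, 207 to 339 and 411 to 479. The 5 B cell markers summed to 534 to 565, 189 to 219 and 160 to 435, and the 6 myeloid markers to 186 to 255, 120 to 194 and 97.7 to 264. The 4 dendritic cell markers summed to 206 to 281 in acute, 312 to 342 in chronic and 158 to 230 in MEK-inhibited libraries. That sum was highest in the chronic libraries, as were Cxcr6 and Ccr8. It includes Xcr1, which lies near Cxcr6 and had group means of 6.46, 53.9 and 2.27. The 2 dendritic cell markers that were tested, Xcr1 not among them, had a median log2 change of -0.10 in chronic against acute libraries. Of these 2, 0 passed the test given below, against 33.9% of all genes. The 2 NK cell markers summed to 7.87 to 19.2, 19.1 to 34.9 and 32.2 to 54.2, and the 3 markers of interleukin 17-making cells to 18.4 to 92.2, 46.2 to 60.7 and 44.1 to 55.2. Of single genes in these lists, Ncr1 was at 0 in 4 libraries, Lyz2 in 5 and Il17a in 8. Others had more signal: 2 of the 5 B cell and 2 of the 6 myeloid markers reached the minimum for a test given below. So did both CD4 T cell and both gamma-delta T cell markers, but 0 of the NK cell and interleukin 17 markers. The part of other cells in the receptor results was not tested.

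A gene was tested when its gene-body signal was at least 50 in at least 3 libraries. Changes are log2 fold changes of signal + 5 with their standard errors (SE), from 1 limma fit of all tested genes with Benjamini-Hochberg adjusted p-values and a threshold of 0.05, and n = 3 libraries per group throughout. The 3 comparisons share their groups with one another and are therefore not independent of each other. In chronic against acute libraries, 3 of the 8 tested receptor genes rose (Cxcr6, Ccr8 and Ccr4) and 1 fell (Cxcr4), against 33.9% of all 15942 tested genes called (18% higher and 15.9% lower). In MEK-inhibited against untreated chronic libraries, 1 rose (Cxcr4) and 3 fell (Cxcr6, Ccr2 and Ccr8), against 17.6% called (9.93% higher and 7.65% lower). In MEK-inhibited chronic against acute libraries, 2 rose (Cxcr4 and Ccr4) and 2 fell (Cxcr6 and Ccr2), against 25.8% called (14.4% higher and 11.5% lower). On rows nearest the RefSeq gene spans 7 members were tested and gave the same calls, against 35.9%, 18.9% and 27.9% of all genes. In each comparison the libraries of both groups did not overlap in 4 of the 8 members, against 44.2%, 32.2% and 42% of all genes. The median log2 change of the tested receptors was 0.08, -0.15 and 0.16 in these comparisons, and that of all tested genes was -0.02, 0.04 and 0.00. Ccr6 did not reach the minimum, and the rows used for Ccr9 and Cx3cr1 held mostly signal of neighbouring genes, as given below.

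The choice of scale touches several of these calls. Scaling to library totals lowered the median change of all genes by 0.49 in chronic against acute and by 0.38 in MEK-inhibited against acute libraries, and raised it by 0.11 in MEK-inhibited against chronic libraries. Of all genes, 2875 were higher and 2528 lower in chronic libraries, and 1096 higher and 6846 lower with totals. Of the receptors, Cxcr6 was then higher, and Cxcr4 and the long Cx3cr1 row lower. Between MEK-inhibited and chronic libraries, 1583 genes were higher and 1219 lower, and 1769 and 741 with totals, where the receptors gave 1 higher and 2 lower. Between MEK-inhibited and acute libraries, 2291 genes were higher and 1827 lower, and 955 and 4965 with totals, where no receptor was higher and 4 were lower (Ccr2, Cxcr6 and the long rows of Ccr9 and Cx3cr1).

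**Figure D1:**
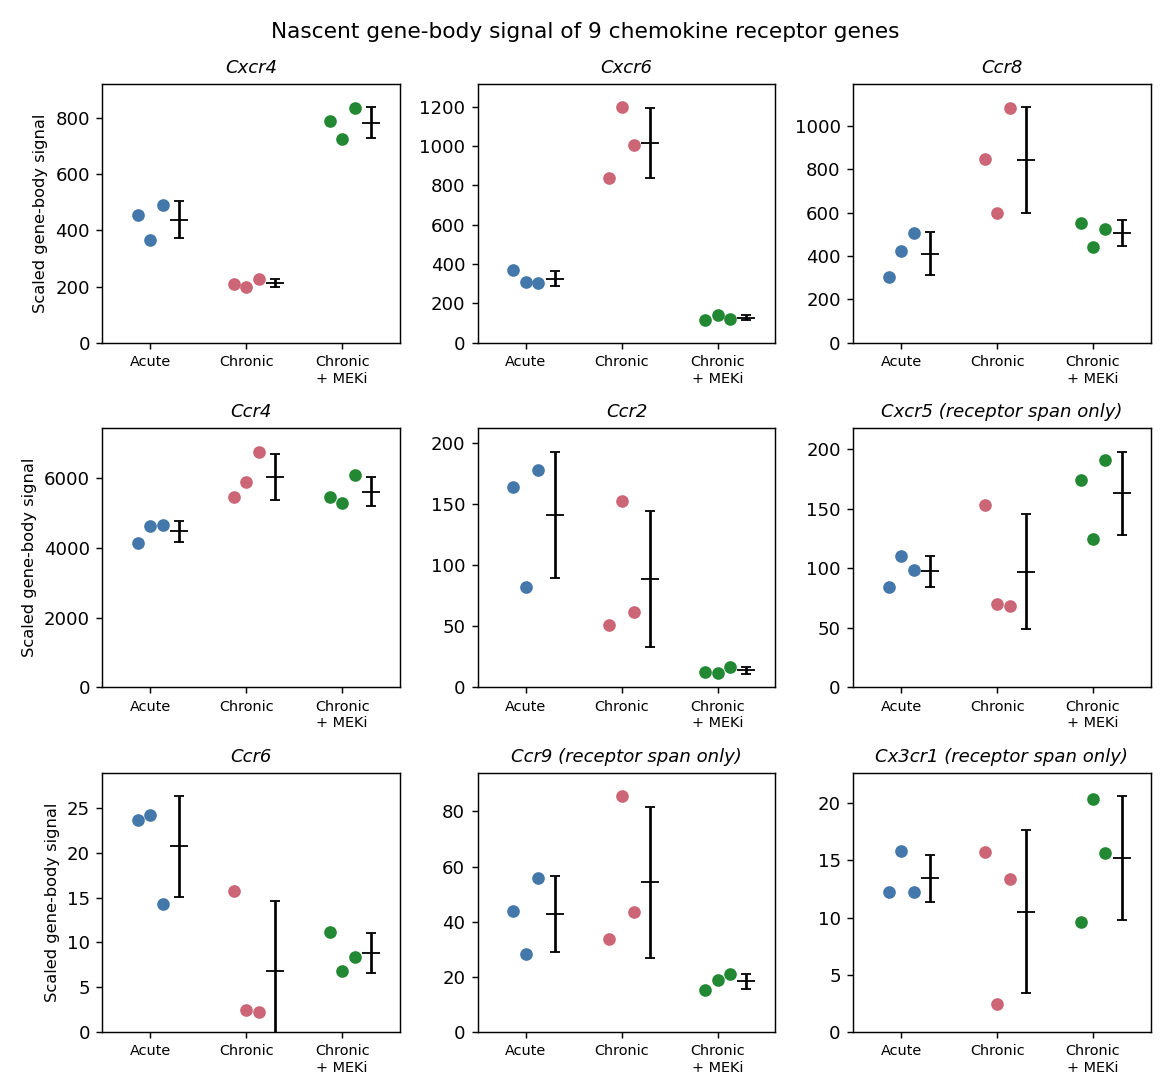
Scaled gene-body signal (arbitrary units, linear axes from 0) of the 9 receptor genes in each library, with the mean and SD of each group of 3 in black. Cxcr4 was lowest and Cxcr6 highest in the chronic libraries, and the row of the receptor's own span is drawn for Cxcr5, Ccr9 and Cx3cr1.

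The promoters of 4 members that changed are shown because their gene-body signal moved in different directions and, for Cxcr4, because its pause region could be tested. Each is the 250 bases before the RefSeq start site in build GRCm38.p6, read 5′ to 3′ on the gene's strand, with motif matches in capitals. The motifs searched on both strands were the TATA box TATAAA, found in 12.3% of 32536 RefSeq promoters, the CCAAT box CCAAT (33.8%), the GC box GGGCGG (33%), the AP-1 site TGANTCA (6.73%), the CRE TGACGTCA (1.56%), and the ETS cores CCGGAA (12.1%) and GGAAGT (19.8%). RefSeq entries matched 8 of the 9 members.
Cxcr4, chr1:128592300-128592549, minus strand: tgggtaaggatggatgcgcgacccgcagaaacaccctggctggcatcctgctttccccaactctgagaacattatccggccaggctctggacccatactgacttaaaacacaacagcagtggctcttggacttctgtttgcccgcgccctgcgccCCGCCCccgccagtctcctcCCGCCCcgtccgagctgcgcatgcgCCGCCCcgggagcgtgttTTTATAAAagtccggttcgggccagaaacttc
Cxcr6, chr9:123806227-123806476, plus strand: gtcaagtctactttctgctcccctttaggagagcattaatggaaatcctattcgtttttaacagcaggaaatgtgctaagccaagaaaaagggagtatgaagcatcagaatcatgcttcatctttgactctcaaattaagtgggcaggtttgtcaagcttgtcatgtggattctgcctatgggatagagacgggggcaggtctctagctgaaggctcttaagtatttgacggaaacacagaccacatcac
Ccr8, chr9:120091883-120092132, plus strand: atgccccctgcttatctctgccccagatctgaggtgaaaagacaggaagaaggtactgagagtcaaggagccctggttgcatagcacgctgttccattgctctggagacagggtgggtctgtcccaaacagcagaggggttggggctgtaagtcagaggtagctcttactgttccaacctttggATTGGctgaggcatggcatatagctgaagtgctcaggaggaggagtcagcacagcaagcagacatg
Ccr4, chr9:114496545-114496794, minus strand: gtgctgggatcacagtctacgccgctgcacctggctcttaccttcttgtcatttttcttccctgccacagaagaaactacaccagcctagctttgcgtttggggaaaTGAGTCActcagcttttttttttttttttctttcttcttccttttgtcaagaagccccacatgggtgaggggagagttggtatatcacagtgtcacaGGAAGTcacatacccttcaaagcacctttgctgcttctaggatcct
The Cxcr4 window held 19 CpG pairs and 61.2% G or C, 3 GC boxes that ended 90, 70 and 45 bases before the start, and overlapping TATA boxes from 32 to 25 bases before it. The median promoter held 6 CpG pairs and 52.4% G or C. The Cxcr6 window had 3 CpG pairs, 43.6% G or C and none of the 7 motifs. The Ccr8 window had 1 CpG pair and a CCAAT box 66 to 62 bases before the start, and the Ccr4 window had an AP-1 match 143 to 137 bases and a GGAAGT match 46 to 41 bases before it. These matches describe letters only.

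Cxcr4 binds CXCL12 and holds lymphocytes in bone marrow and lymphoid tissue. Its gene (Cxcr4-201, chr1:128588199-128592290, minus strand) had a scaled gene-body signal of 457, 364 and 492 in the acute, 210, 198 and 228 in the chronic and 790, 726 and 835 in the MEK-inhibited libraries. The 3 groups did not overlap: chronic was lowest and MEK-inhibited highest. Signal was 2.03-fold lower in chronic than in acute libraries (log2 change -1.02, SE 0.19, adjusted p = 0.000444) and 3.63-fold higher with MEK inhibition than in chronic libraries (1.86, SE 0.19, adjusted p = 1.3e-06). These calls held in all 9 fits that left out 1 library. With MEK inhibition signal also exceeded the acute level (0.84, SE 0.19, adjusted p = 0.0032). This call was lost with library totals (0.46, adjusted p = 0.104), on the deposited scale (0.50, adjusted p = 0.0771) and with the shorter of its 2 transcripts (0.60, adjusted p = 0.21). That shorter transcript, Cxcr4-202, lacks the last part of the other and held 24.7 to 70.1% of its signal.

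Cxcr6 binds CXCL16 and marks many tissue-resident T cells. Its gene (Cxcr6-201, chr9:123806475-123811756, plus strand) had a signal of 368, 307 and 305 in the acute, 840, 1197 and 1006 in the chronic and 117, 143 and 123 in the MEK-inhibited libraries. Again the groups did not overlap, here with chronic highest and MEK-inhibited lowest, the reverse of the order in Cxcr4. Signal was 3.05-fold higher in chronic than in acute libraries (log2 change 1.61, SE 0.21, adjusted p = 1.06e-05). With MEK inhibition it was 7.63-fold lower than in chronic libraries (-2.93, SE 0.21, adjusted p = 1.54e-08) and 2.50-fold lower than in acute libraries (-1.32, SE 0.21, adjusted p = 0.000138). All of these calls held when any 1 library was left out.

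The whole of Cxcr6 lies inside Fyco1, a gene for an adaptor of vesicle transport that is read from the opposite strand. The deposited signal does not tell strands apart: 5 pairs of genes on opposite strands whose spans overlapped by at least 98% had signal ratios of 0.995 to 1.05 and a correlation of at least 0.9987 over the 9 libraries. Signal of both genes within the overlap therefore cannot be told apart. Fyco1 as a whole had 1366 to 1597 in acute, 3560 to 3983 in chronic and 697 to 869 in MEK-inhibited libraries, a log2 change of 1.34 (SE 0.12, adjusted p = 8.64e-08) and of -2.20 (SE 0.12, adjusted p = 5.64e-10) with MEK inhibition. A Fyco1 transcript that does not cover Cxcr6 gives a level beside it. Signal per kb over Cxcr6 was 2.84 to 3.98 times that level in acute, 3.96 to 5.00 times in chronic and 2.01 to 2.56 times in MEK-inhibited libraries. These ratios set the signal of both strands over the Cxcr6 span against another stretch of Fyco1, and they were lowest in all 3 MEK-inhibited libraries.

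**Figure D2:**
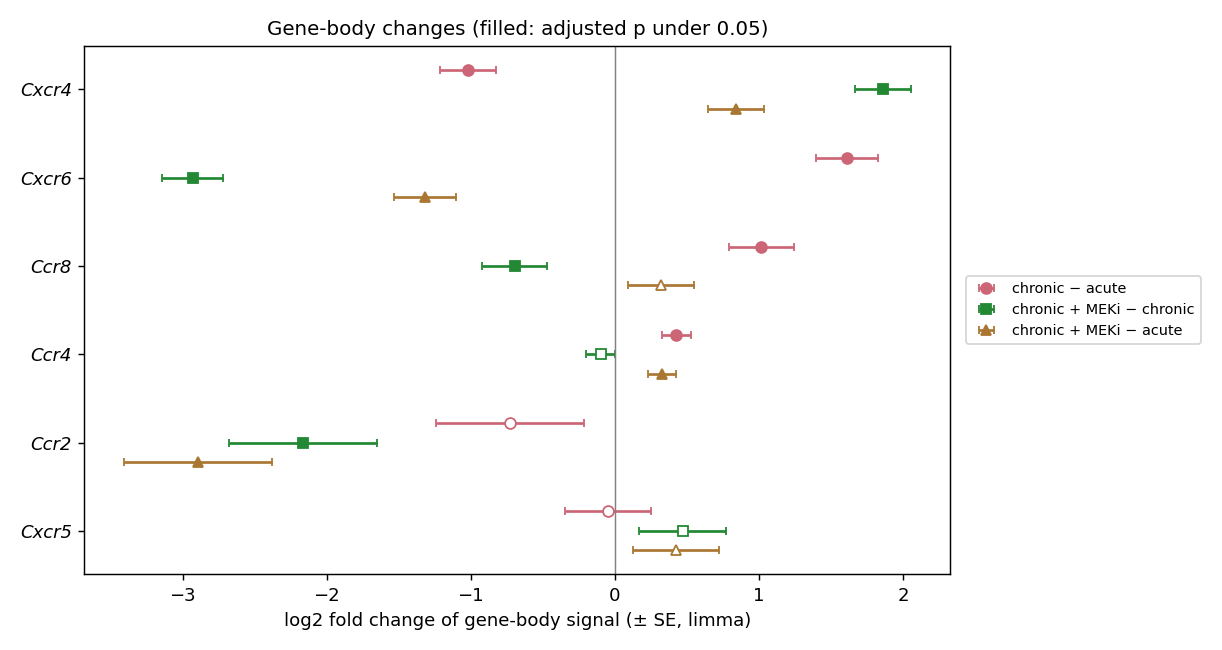
Log2 fold change of gene-body signal with its SE for 6 receptor genes in the 3 comparisons; filled marks passed an adjusted p of 0.05. Cxcr4 and Cxcr6 had changes of opposite sign in each comparison, and Ccr2 fell in both comparisons that involve MEK inhibition.

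Cxcr5 binds CXCL13 and directs cells to B cell follicles. Its row of largest signal (chr9:44511787-44561877, minus strand) had 134, 175 and 189 in acute, 196, 152 and 134 in chronic and 242, 161 and 279 in MEK-inhibited libraries, and the 3 groups overlapped. None of its changes passed (log2 -0.05, 0.47 and 0.42, SE 0.30, adjusted p = 0.924, 0.336 and 0.34). The row nearest the RefSeq gene, Cxcr5-201, had 83.9, 109 and 97.8, then 153, 70.1 and 68.6, then 174, 124 and 191. There the MEK-inhibited libraries lay above the acute ones, but no change passed in the fit of such rows (-0.10, 0.80 and 0.70, SE 0.38, adjusted p = 0.87, 0.165 and 0.187). The end of Bcl9l, read from the opposite strand, overlaps the end of both rows, and signal there cannot be told apart. Bcl9l had 1868 to 3111 in acute, 691 to 923 in chronic and 2047 to 2354 in MEK-inhibited libraries. Cxcr5-205, a row that stops short of Bcl9l, had 31.4, 65.6 and 59.1 in acute and 73.7, 62.8 and 122 in MEK-inhibited libraries. In it the acute and MEK-inhibited libraries overlapped. The part of Bcl9l in the Cxcr5 values was not tested.

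Ccr4 binds CCL17 and CCL22 and is known for homing to skin. Per kb of row it had the highest gene-body signal of the 9 members in each group: 716 ± 47.1 in acute, 966 ± 107 in chronic and 899 ± 68.6 in MEK-inhibited libraries (SD, n = 3). As scaled signal, the row Ccr4-201 (chr9:114490316-114496562, minus strand) had 4136, 4621 and 4669 in acute, 5451, 5889 and 6762 in chronic and 5461, 5291 and 6103 in MEK-inhibited libraries. The acute libraries lay below all others, and the chronic and MEK-inhibited libraries overlapped. The change was 1.34-fold in chronic against acute libraries (log2 0.43, SE 0.10, adjusted p = 0.00251) and 1.25-fold in MEK-inhibited against acute libraries (0.33, SE 0.10, adjusted p = 0.0206). Both turned with library totals (-0.06, adjusted p = 0.686, and -0.06, adjusted p = 0.744), so they hold relative to the median gene and not relative to the total. The second was also lost without any 1 of the 3 acute libraries or without MEK-inhibited replicate 1 or 3, where it ran from 0.21 to 0.30. It was lost as well with no filter (0.26, adjusted p = 0.303), with totals without the ribosomal RNA-like locus (0.16, adjusted p = 0.26), without limma's trend and robust steps (adjusted p = 0.095) and with the shortest row (0.32, adjusted p = 0.0522). Between MEK-inhibited and chronic libraries the log2 difference was -0.10 (SE 0.10, adjusted p = 0.581).

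Ccr8 binds CCL1 and is known in skin T cells and in regulatory T cells of tumours. Its gene (Ccr8-201, chr9:120092114-120094906, plus strand) had a signal of 305, 424 and 506 in acute, 850, 599 and 1085 in chronic and 553, 441 and 527 in MEK-inhibited libraries. Every chronic library exceeded every other library, while acute and MEK-inhibited libraries overlapped. Signal was 2.02-fold higher in chronic than in acute libraries (log2 1.02, SE 0.23, adjusted p = 0.00182), a call lost with library totals (0.53, adjusted p = 0.0586) and on the deposited scale (0.55, adjusted p = 0.053). MEK inhibition gave a 1.62-fold lower signal than in chronic libraries (-0.70, SE 0.23, adjusted p = 0.0415). That call was lost with library totals (-0.59, adjusted p = 0.088), on the deposited scale (-0.57, adjusted p = 0.1), with no filter (-0.77, adjusted p = 0.109), without limma's trend and robust steps (adjusted p = 0.125) and without chronic replicate 1 or 3 or any 1 of the 3 MEK-inhibited libraries (-0.82 to -0.50, adjusted p = 0.0517 to 0.184). Against acute libraries the difference was 0.32 (SE 0.23, adjusted p = 0.339). Ikzf2, the regulatory T cell marker measured here, ran from 3400 to 3758 in acute, 4021 to 4902 in chronic and 10932 to 11096 in MEK-inhibited libraries. It was called higher in chronic than in acute libraries (log2 0.31), as Ccr8 was. With MEK inhibition it was called higher than in chronic libraries (1.32), where Ccr8 was lower. The part of such cells in the Ccr8 values was not tested.

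Ccr2 binds CCL2 and brings cells to inflamed tissue. Its row (chr9:124101950-124113557, plus strand) had 164, 81.9 and 177 in acute, 50.7, 152 and 61.8 in chronic and 12.8, 11.9 and 16.7 in MEK-inhibited libraries. All 3 MEK-inhibited libraries lay below the others, and acute and chronic libraries overlapped. With MEK inhibition signal was 4.48-fold lower than in chronic libraries (log2 -2.16, SE 0.51, adjusted p = 0.0058) and 7.43-fold lower than in acute libraries (-2.89, SE 0.51, adjusted p = 0.000342). The first of these was lost without chronic replicate 2, the library with the highest chronic value (-1.72, adjusted p = 0.0548). Chronic and acute libraries differed by -0.73 (SE 0.51, adjusted p = 0.295).

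Ccr6 binds CCL20 and is known from T cells that make interleukin 17. Its row (Ccr6-202, chr17:8236212-8257141, plus strand) stayed under the minimum, with 23.7, 24.3 and 14.3 in acute, 15.8, 2.42 and 2.25 in chronic and 11.2, 6.79 and 8.33 in MEK-inhibited libraries. The acute and chronic libraries overlapped at these low values, and it was not tested.

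Cx3cr1 binds CX3CL1 and marks effector CD8+ T cells of the blood. By the rule of the largest signal its row was Cx3cr1-202 (chr9:119901616-120068283, minus strand), an annotated transcript of 166668 bases. That row had 9314, 12986 and 9694 in acute, 9255, 9362 and 10949 in chronic and 9769, 10221 and 9883 in MEK-inhibited libraries. Those numbers are not a measure of the receptor: 80.9 to 86.2% of the row's signal lay in Csrnp1, a gene for a nuclear protein whose span lies within the row. The row of the receptor's own span, Cx3cr1-201 (chr9:120048683-120068296), held 0.0258 to 0.199% of it, with 12.2, 15.7 and 12.2, then 15.8, 2.42 and 13.5, then 9.61, 20.4 and 15.6. These values overlap between all groups and stay under the minimum for a test. The long row gave no call (log2 -0.10, 0.02 and -0.08, SE 0.11, adjusted p = 0.512, 0.942 and 0.642), and Csrnp1 itself gave none (-0.13, 0.05 and -0.08, SE 0.12).

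**Figure D3:**
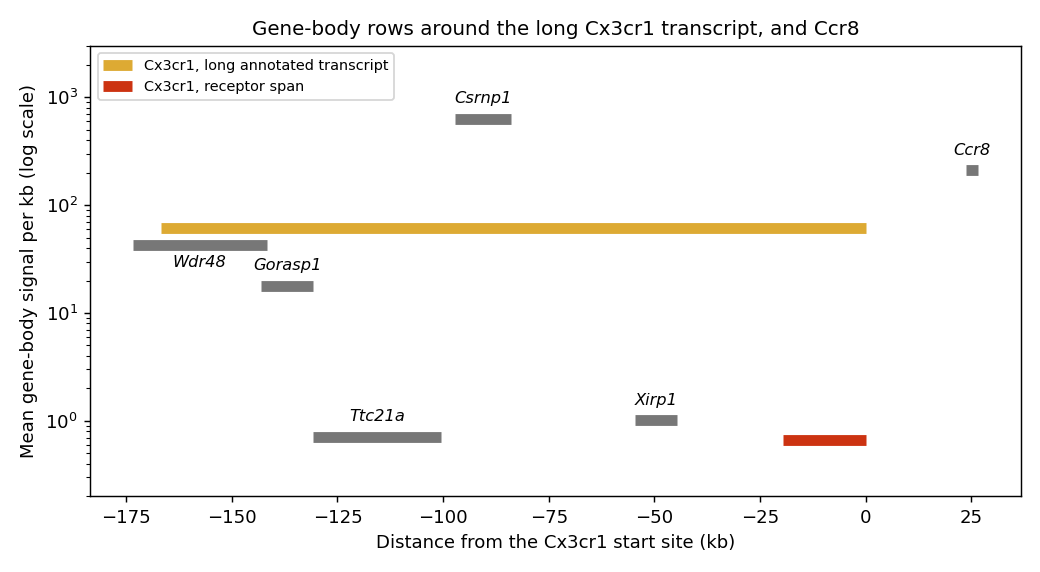
Mean gene-body signal per kb over all 9 libraries (log axis) of the rows around the long Cx3cr1 transcript, drawn over their span as distance in kb from the Cx3cr1 start. Csrnp1 stands above every other row, while the row of the receptor itself lies at 0.665 per kb, about the level of Ttc21a and Xirp1.

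Ccr9 binds CCL25 and is known for homing to the small intestine and thymus. Its rule-chosen row, Ccr9-202 (chr9:123678439-123781965, plus strand), spans 103527 bases and had 1313, 1358 and 1177 in acute, 1308, 1393 and 1741 in chronic and 1257, 1210 and 1356 in MEK-inhibited libraries. Of this signal, 79.9 to 94.5% lay in the noncoding gene Gm17200 at its upstream end. The row of the receptor, Ccr9-203 (chr9:123767211-123784330), held 1.21 to 6.16% of the long row's signal. It had 43.5, 28.2 and 55.7 in acute, 33.8, 85.9 and 43.8 in chronic and 15.2, 18.7 and 20.8 in MEK-inhibited libraries, which were the lowest 3. AC165425.1, a gene on the opposite strand (chr9:123768114-123791289), covers most of this row, and signal of both within the overlap cannot be told apart. Its own row gave 0.04 in chronic against acute libraries (limma, SE 0.35, adjusted p = 0.95). With MEK inhibition it gave -1.11 against chronic (adjusted p = 0.0324) and -1.07 against acute libraries (adjusted p = 0.0285). The other end of AC165425.1 overlaps the end of Fyco1, and signal of both there cannot be told apart either. Fyco1 changed by -2.20 and -0.87 in the same 2 comparisons (SE 0.12). Neither Ccr9 row gave a call. The long row had log2 changes of 0.20, -0.21 and -0.01 (SE 0.13, adjusted p = 0.265, 0.334 and 0.974), and the receptor row 0.26, -1.26 and -0.997 (SE 0.58, adjusted p = 0.756, 0.153 and 0.225).

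On rows that cover the receptors themselves, the members fell into a wide order of gene-body signal per kb. In acute libraries it ran Ccr4 (716), Ccr8 (147), Cxcr4 (107), Cxcr6 (61.8), Ccr2 (12.2), Cxcr5 (6.65), Ccr9 (2.49), Ccr6 (0.991) and Cx3cr1 (0.684). In chronic libraries Cxcr6 (192 per kb) stood above Cxcr4 (51.8), and its range overlapped that of Ccr8 (302). In MEK-inhibited libraries Cxcr4 (191 per kb) and Ccr8 (182) overlapped next below Ccr4, and Cxcr6 (24.2) stood below both. Ccr8 and Cxcr4 overlapped in the acute libraries too, as did Ccr2 with Cxcr5 and Ccr6 with Cx3cr1.

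Cxcr6, Ccr9 and Ccr2 lie in 1 stretch of chromosome 9 that also holds the chemokine receptor genes Xcr1, Ccr1 and Ccr3. Xcr1, which binds XCL1, had 4.48, 1.31 and 13.6 in acute, 16.9, 75.0 and 69.7 in chronic and 1.60, 0 and 5.21 in MEK-inhibited libraries. Ccr1, a receptor for CCL3 and CCL5, had 27.5, 7.21 and 13.6, then 49.6, 77.4 and 69.7, then 0, 0 and 4.17. Both were under the minimum for a test, and Ccr1 is named after its values were seen. Every chronic library exceeded every acute and MEK-inhibited one for both genes, while acute and chronic libraries overlapped in the receptor row of Ccr9, on the other side of Cxcr6.

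Lztfl1, which overlaps the end of Gm17200 and lies within the long Ccr9 row, rose in chronic libraries (1.32, SE 0.46, adjusted p = 0.0341) and fell with MEK inhibition (-1.70, SE 0.46, adjusted p = 0.0142), with chronic values of 141, 93.1 and 336. Ccr3 had 0 to 13.6 in all libraries.

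**Figure D4:**
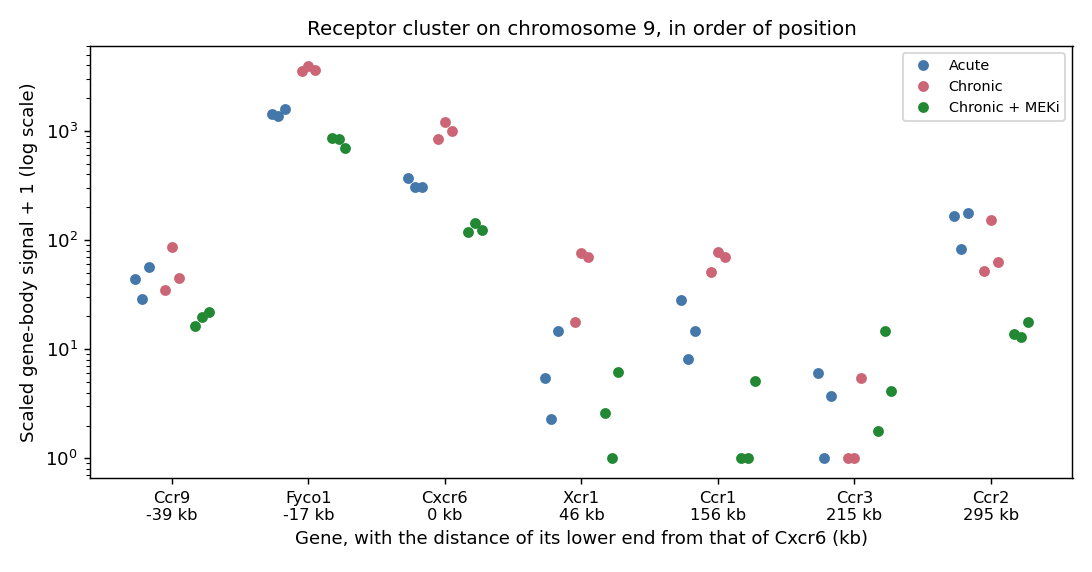
Scaled gene-body signal + 1 (log axis) of the chromosome 9 receptor cluster in gene order, 1 point per library, with the distance of each gene's lower end from that of Cxcr6. The chronic points stand highest from Fyco1 to Ccr1, and the MEK-inhibited points lowest at Ccr2. Ccr9 is drawn by the row of the receptor's own span.

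Pause-region signal reached the minimum in 3 members, Cxcr4, Ccr8 and Ccr4. In Cxcr4 it was 65.3, 42.1 and 64.2 in acute, 8.37, 9.34 and 29.2 in chronic and 69.3, 52.9 and 73.7 in MEK-inhibited libraries, so that the chronic libraries lay below all others, as in the gene body. The fall from acute to chronic libraries passed (log2 -1.71, SE 0.55, adjusted p = 0.0408), 1 of 3 members against 10.7% of 7678 tested genes (5.35% lower). It was kept in only 1 of the 9 fits that left out a library, the one without chronic replicate 3, and reached an adjusted p of 0.156 without acute replicate 1. The difference with MEK inhibition did not pass (1.90, SE 0.55, adjusted p = 0.0536), and passed without chronic replicate 3 (2.34, adjusted p = 0.0243).

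In Ccr8 the pause region held 64.5, 52.8 and 70.2 in acute, 81.6, 113 and 108 in chronic and 51.1, 49.1 and 28.7 in MEK-inhibited libraries. The chronic libraries were again above the rest, but no change passed (0.64, -1.16 and -0.52, SE 0.40, adjusted p = 0.36, 0.136 and 0.539). In Ccr4 it held 313, 307 and 366, then 247, 364 and 297, then 317, 272 and 225, with overlapping groups and no call. The pause region of Ccr4-203, whose annotated start lies further upstream, held 0 in all but 1 library, so this signal lay at the starts of the other Ccr4 transcripts. In MEK-inhibited against chronic libraries limma called 0 of 3 members against 3% of all genes (2 at an unadjusted p under 0.05), and in MEK-inhibited against acute libraries 0 of 3 against 5.95% (0 at an unadjusted p under 0.05).

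The ratio of pause-region to gene-body signal was called by limma for 0 of these 3 genes in every comparison, against 0% of 7413 genes. At an unadjusted p under 0.05 there were 0, 0 and 2 members (Ccr4 and Ccr8 in MEK-inhibited against acute libraries) and 749, 394 and 591 of all genes. For Cxcr4 the log2 ratio was -2.71, -2.97 and -2.84 in acute, -4.01, -3.83 and -2.77 in chronic and -3.42, -3.66 and -3.42 in MEK-inhibited libraries. Its chronic range enclosed the MEK-inhibited values.

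**Figure D5:**
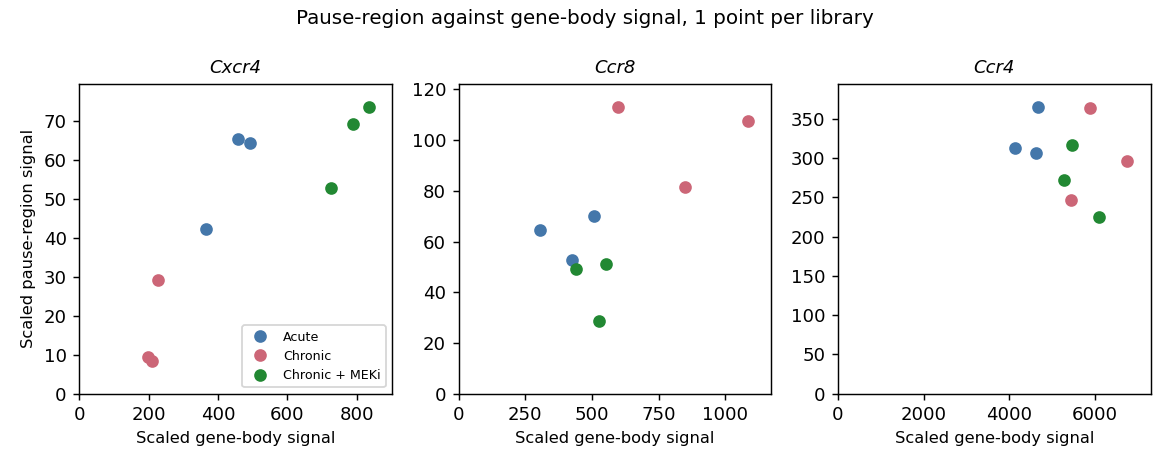
Pause-region against gene-body signal (scaled signal, linear axes from 0) of the 3 members tested in both, 1 point per library. The chronic libraries sit lowest on both axes for Cxcr4 and highest on both for Ccr8, while Ccr4 shows no such order on the pause-region axis.

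Of the chemokine receptor genes outside the 9 members, Ccr7 was called in each comparison. Ccr7, which binds CCL19 and CCL21 and keeps T cells in lymph nodes, had a signal of 10067, 12165 and 10933 in acute, 1963, 2057 and 2591 in chronic and 4985, 5217 and 5128 in MEK-inhibited libraries. Its groups did not overlap, with acute highest and chronic lowest. Signal fell from acute to chronic libraries (log2 -2.33, SE 0.11, adjusted p = 1.53e-11) and rose with MEK inhibition (1.22, SE 0.11, adjusted p = 1.57e-07), which left it under the acute level (-1.11, SE 0.11, adjusted p = 3.7e-07). Cxcr4 shared the first 2 of these directions and differed in the third. Of 6 atypical receptors, 2 were tested. Limma called 0 of these in each comparison, against 33.9%, 17.6% and 25.8% of all genes. At an unadjusted p under 0.05 there were 0, 0 and 2.

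Of 38 chemokine ligand genes, 5 were tested. In chronic against acute libraries 2 rose, Ccl3 and Ccl4, which attract T cells and monocytes, against 33.9% of all genes called. With MEK inhibition 3 fell against chronic libraries, the same 2 and Ccl25, the ligand of Ccr9, against 17.6% of all genes. The change of Ccl25 was small (limma, log2 -0.36, SE 0.12, adjusted p = 0.0458). Ccl4 had 15.4, 39.3 and 12.2 in acute, 822, 1016 and 1351 in chronic and 11.2, 27.2 and 7.29 in MEK-inhibited libraries, a log2 change of 5.39 and then of -5.82 (SE 0.48). Cxcl16, the ligand of Cxcr6, had values of 8.47 to 97.8 with no call. In MEK-inhibited against acute libraries limma called 0 of the 5 ligands, against 25.8% of all genes, with 0 at an unadjusted p under 0.05.

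Of 44 genes of receptor signalling and desensitisation, 42 were tested. In chronic against acute libraries 11 rose and 16 fell, with a median log2 change of -0.15, where 33.9% of all genes were called. With MEK inhibition 9 rose and 9 fell against chronic libraries, with a median of 0.09 and 17.6% of all genes called. Against acute libraries 7 rose and 13 fell, with a median of -0.06 and 25.8% of all genes called. Pik3cg, the catalytic subunit of the phosphoinositide 3-kinase activated by G protein βγ subunits, rose in chronic libraries (log2 1.16, SE 0.11, adjusted p = 2.12e-07) and fell with MEK inhibition (-2.61, SE 0.11, adjusted p = 2.26e-11), as Cxcr6 did. Rgs16 and Rgs2, which switch off G protein α subunits, had 143 to 317 and 56.4 to 135 in acute, 1639 to 2579 and 573 to 952 in chronic and 317 to 421 and 6.41 to 57.7 in MEK-inhibited libraries. Both rose in chronic libraries and fell with MEK inhibition, and against acute libraries Rgs2 fell (adjusted p = 0.0085) while Rgs16 had a change of 0.69 that did not pass (adjusted p = 0.052). Prex1, an exchange factor for Rac downstream of these receptors, and Rhoh, an atypical GTPase of lymphocytes, changed as Cxcr4 did in the first 2 comparisons: Prex1 fell by 1.64 and rose by 1.34 with MEK inhibition, and Rhoh fell by 2.10 and rose by 1.34 (log2, adjusted p at most 2.89e-06).

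Of 19 homing genes 17 were tested. In chronic against acute libraries 3 rose and 10 fell, with a median log2 change of -0.68, beside the same 33.9% of all genes. Against chronic libraries 5 rose and 2 fell with MEK inhibition (median 0.04, all genes 17.6%), and against acute libraries 2 rose and 7 fell (median -0.26, all genes 25.8%). S1pr1, the receptor for the lipid that draws T cells out of lymph nodes, fell by 3.77 in chronic libraries and rose by 1.35 with MEK inhibition (log2, adjusted p at most 3.36e-06 for the changes of the 3 genes named here that passed). Klf2, a transcription factor of naive T cell traffic, fell by 3.01 and rose by 2.41. Gcnt1, an enzyme that branches sugar chains on surface proteins, rose by 2.25 in chronic libraries and did not pass with MEK inhibition (0.32, adjusted p = 0.304).

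Patterns most like those of the members were sought among 10741 to 10745 tested genes by Pearson correlation of log2 signal over the 9 libraries, which share their groups, so that the values are descriptions. For Cxcr4 they were Mgat1 (r = 0.976), Adcy5 (0.974) and Kit (0.972). For Cxcr6 they were Ssh2 (0.990), Emilin2 (0.989) and Pik3cg (0.986). For Ccr2 they were Mga (0.989), Cd226 (0.973) and Hnrnpc (0.971), and for Ccr4 Zbtb32 (0.984), Tuba1b (0.981) and Dedd2 (0.976). Ccr8 came closest to Platr30 (0.959), Zfp119b (0.946) and Nme2 (0.946), and Cxcr5 to Med23 (0.895), Capn1 (0.882) and Slc8b1 (0.881).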

How the data were processed

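Per the labels' protocols, RNA labelled with 5-ethynyl uridine was captured and its cDNA read from both ends, 100 bases each. The submitters' processing notes name FastQC 0.12.0, Trim Galore 0.6.10, STAR 2.7.0a, SAMtools 1.19.2, deepTools 0.1.9, R 4.1.2 and build mm10; their roles, the counting step, its use of strand, the limits of the regions and the annotation are not given in the sources used here. The authors deposited signal per transcript in a gene-body and a pause-region table. Its values are whole multiples of a step that differs between libraries (0.764 to 1.06) and were not treated as reads.

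Of 118482 rows, 117346 matched GENCODE M21 transcripts with their version, 383 without it and 753 not at all. Cxcr3 and Foxp3 were not analysed here, and some genes of the lists are not reported here. The members, gene lists and tests were chosen with earlier results of these data known. Named beside the members are called genes of the 5 lists, genes within 100 kb, and the 3 genes most alike in pattern with a mean signal of at least 100.

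Libraries were rescaled to each other by their mean log ratio over genes, without weights, after dropping the outer 30% of ratios and 5% of levels at each side, and log2(signal + 5) was fitted with limma 3.58.1 (trend, robust) in R 4.3.3, 1 mean per group over all 9 libraries. The fit was tested on simulated data. Libraries were correlated at 0.959 to 0.984 within groups and 0.910 to 0.954 between them. Tables and figures used Python 3.11.15 with pandas 2.3.3 and matplotlib 3.10.9. In all, 21 other settings were tried; the row nearest the RefSeq gene span was added after seeing the data.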

Additional observations from a re-analysis of the deposited data

How the results depend on the processing

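Depth in reads is unknown, and each group has 3 libraries, so small differences in weak genes such as Ccr6, Ccr9 and Cx3cr1 could not be detected here. Of 843 single-gene values under alternatives, 752 kept direction and side of the threshold, 36 lost the call, 10 gained one and 45 changed sign; the cause was not tested. The gene-body counts of called members stayed within 1.5 times the 4 of each comparison, except that the shortest row gave 2 in MEK-inhibited against acute libraries; leaving out 1 library gave 4, 3 to 4 and 3 to 4. Pause-region calls in chronic against acute libraries fell from 1 to 0 with no filter, a minimum of 200, the deposited scale, totals without the ribosomal RNA-like locus and the shortest row (0 to 1 leaving out 1 library). In MEK-inhibited against chronic libraries they rose from 0 to 1 with library totals, the deposited scale, no trend or robust step and the shortest row (0 to 1 leaving out 1 library).

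Sign changes were as follows, in log2. For Ccr4 gene body, library totals and the deposited scale gave -0.063 and -0.046 for chronic against acute libraries, -0.056 and -0.016 for MEK-inhibited against acute libraries, and 0.0067 and 0.031 for MEK-inhibited against chronic libraries. Ccr8 gave -0.059 and -0.019 in MEK-inhibited against acute, and the long Ccr9 row -0.29 and -0.27 in chronic against acute libraries. The long Cx3cr1 row gave -0.052 with no filter in MEK-inhibited against chronic libraries. In the Ccr4 pause region the shortest row gave 0.23 for chronic against acute libraries, 0.29 for MEK-inhibited against acute libraries and 0.064 for MEK-inhibited against chronic libraries, the last also turning with totals (0.11) and the deposited scale (0.051). The Cxcr4 pause region gave -0.13 with totals in MEK-inhibited against acute libraries. The Ccr4 ratio of pause region to gene body in MEK-inhibited against chronic libraries gave 0.030 with no filter, 0.10 with totals, 0.020 on the deposited scale and 0.14 with the shortest row, the Cxcr4 ratio -0.49 with a pseudocount of 20, and the Ccr8 ratio 0.021 in chronic against acute libraries on the deposited scale. Leaving out 1 library turned values that had not passed: in chronic against acute libraries Cxcr5 ran from -0.20 to 0.075, Cx3cr1 from -0.20 to 0.058 and the Ccr4 pause region from -0.27 to 0.0085. In MEK-inhibited against acute libraries Ccr9 ran from -0.13 to 0.016, Cx3cr1 from -0.23 to 0.015 and the Cxcr4 pause region from -0.015 to 0.32. In MEK-inhibited against chronic libraries Cx3cr1 ran from -0.043 to 0.10, the Cxcr4 ratio from -0.20 to 0.43 and the Ccr4 ratio from -0.14 to 0.15.

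Same-numbered libraries had correlated deviations of -0.533 to 0.0979 over 9 pairs, and 1 library correlated best with its own number, so the numbers were not taken to pair the libraries. With a replicate block the counts stayed at 4, 4 and 4 for the gene body, 1, 0 and 0 for the pause region and 0, 0 and 0 for the ratio, and none of the 42 single-gene calls changed.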
